A study of Mus musculus with 4 samples.

Results

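Ribosome biogenesis is the assembly line that turns ribosomal RNA and ribosomal proteins into ribosomal subunits, and most of it runs in the nucleolus. RNA polymerase I transcribes a long precursor RNA there, small nucleolar ribonucleoproteins modify it, and large sets of assembly factors fold and cut it into the small and the large subunit. The transcription factor MYC is known as an activator of many of these genes, and growing tumour cells generally express them strongly.

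The genes described here are 35 nucleolar and ribosome assembly genes, taken as a fixed list of symbols that was chosen with earlier results of these data known. A gene was measured if a row of the deposited table carried its symbol and no other, and of several such rows the brightest on average was used. By that rule 34 of the 35 were measured, out of 22180 genes tested in all. The exception was Fbl, the methyltransferase of the box C/D particles, whose row also carries the symbol Tulp4.

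The samples were cultures of the mouse ovarian cancer line BR5FVB1-Akt, grown with 10 uM decitabine for 72 h (2 arrays) or without it (2 control arrays). Decitabine is a deoxycytidine analogue that traps DNA methyltransferases on replicating DNA. The labels give no genotype for the line, both groups are 1 line in culture, and the replicates are called biological with no word on how they were cultured, so p-values reflect only the scatter among 4 arrays. Affymetrix Mouse Gene ST arrays were probed with total RNA, and their deposited values were taken to be on the log2 scale, since their range is that of log2 array summaries. Median values over all rows were 4.60 and 4.66 on the decitabine arrays and 4.60 on both control arrays, and the number of arrays limited the precision. Of the epithelial markers, Krt18 averaged 9.40 and Wt1 10.68 over the 4 arrays, while Epcam averaged 4.76 and Pax8 3.55. The 5 fibroblast markers lay between 6.18 and 11.77. Among markers of other cell types, 2 of 6 leukocyte and 2 of 4 endothelial genes were higher with decitabine at an unadjusted p below 0.05, with 0 lower, where 7.34% of all genes were higher and 6.97% lower. Of the 10 epithelial markers, 4 were higher (Krt8, Krt18, Krt19 and Msln) and 1 lower (Wt1), and of the 5 fibroblast markers 1 was higher, Thy1 with a log2 fold change of 1.48 ± 0.17, and 1 lower, Pdgfra with −0.28 ± 0.10. The log2 values of the leukocyte markers summed to 27.9 and 28.1 on the decitabine arrays, against 26.4 on both control arrays. Those of the endothelial markers summed to 18.3 and 18.7, against 17.9 and 17.1. Only 2 of the 6 leukocyte and 1 of the 4 endothelial markers lay above the median level of all genes. The higher leukocyte genes were Cd68 and Itgam, while Ptprc (average 3.12) and Cd3e (3.38) did not pass that threshold. Such sums do not measure cell content. Whether cells of these types were in the cultures, or had a part in the results below, was not tested.

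With decitabine, ribosome assembly genes were higher as a group by a small amount. The median log2 fold change (decitabine over control) was 0.23 over the 34 genes, against 0.00 over all genes tested, and 31 of the 34 were positive where 50.7% of all genes were, and 50.2% of the 5826 genes at or above the level of the dimmest listed one. The mean level of the 34 genes was 8.97 and 8.98 on the decitabine arrays, against 8.73 and 8.74 on the control arrays. Arrays of the same group thus differed in that mean by 0.01 in each group, and the groups differed by 0.24. Same-group differences of single genes were larger, with a median size of 0.07 in each group, and partly cancelled in the mean. Control replicate 1 minus 2 averaged −0.08 over the small subunit genes and 0.06 over the large subunit genes. The 0.01 is therefore no measure of the spread of a gene or a role. In 29 of the 34 genes both decitabine arrays lay above both control arrays, a pattern found in 23.4% of all genes. In 1 gene, Polr1a, both lay below, as in 22.5% of all genes.

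No single gene of the list passed the threshold over all genes, and the smallest adjusted p was 0.101, for Rrp12 (limma with Benjamini-Hochberg adjustment). By that rule 0.131% of all genes were called higher and 0.0135% lower, and 0.223% and 0.0515% of the brighter ones. With an unadjusted p below 0.05, 13 of the 34 were higher and 0 lower, against 7.34% and 6.97% of all genes. The 34 genes all had averages of 7.21 or more, and among the 5826 brighter genes the shares were 10.4% higher and 10.2% lower. In these brighter genes 33.5% had separated arrays with decitabine above and 31.9% with decitabine below, and their median log2 fold change was 0.00.

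When the variance was allowed to follow the level of expression (limma's intensity trend), 14 of the 34 passed an adjusted p of 0.05, all of them higher. By that rule 3.68% of all genes were called higher and 3.60% lower, and 9.27% and 9.58% of the brighter genes. The 14 were the 13 genes named in the paragraphs that follow as past an unadjusted p of 0.05, together with Nop58. In a fit with the trend to all 41345 rows, an alternative chosen after seeing the data, Rrp12 was the 1 listed gene that passed (adjusted p = 0.0482, limma). Of the 22180 genes, 114 passed in that fit as higher and 51 as lower. The arrays measured RNA from whole cultures relative to the other RNAs on the array, so more cells with the RNA and more RNA per cell cannot be told apart.

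**Figure D1:**
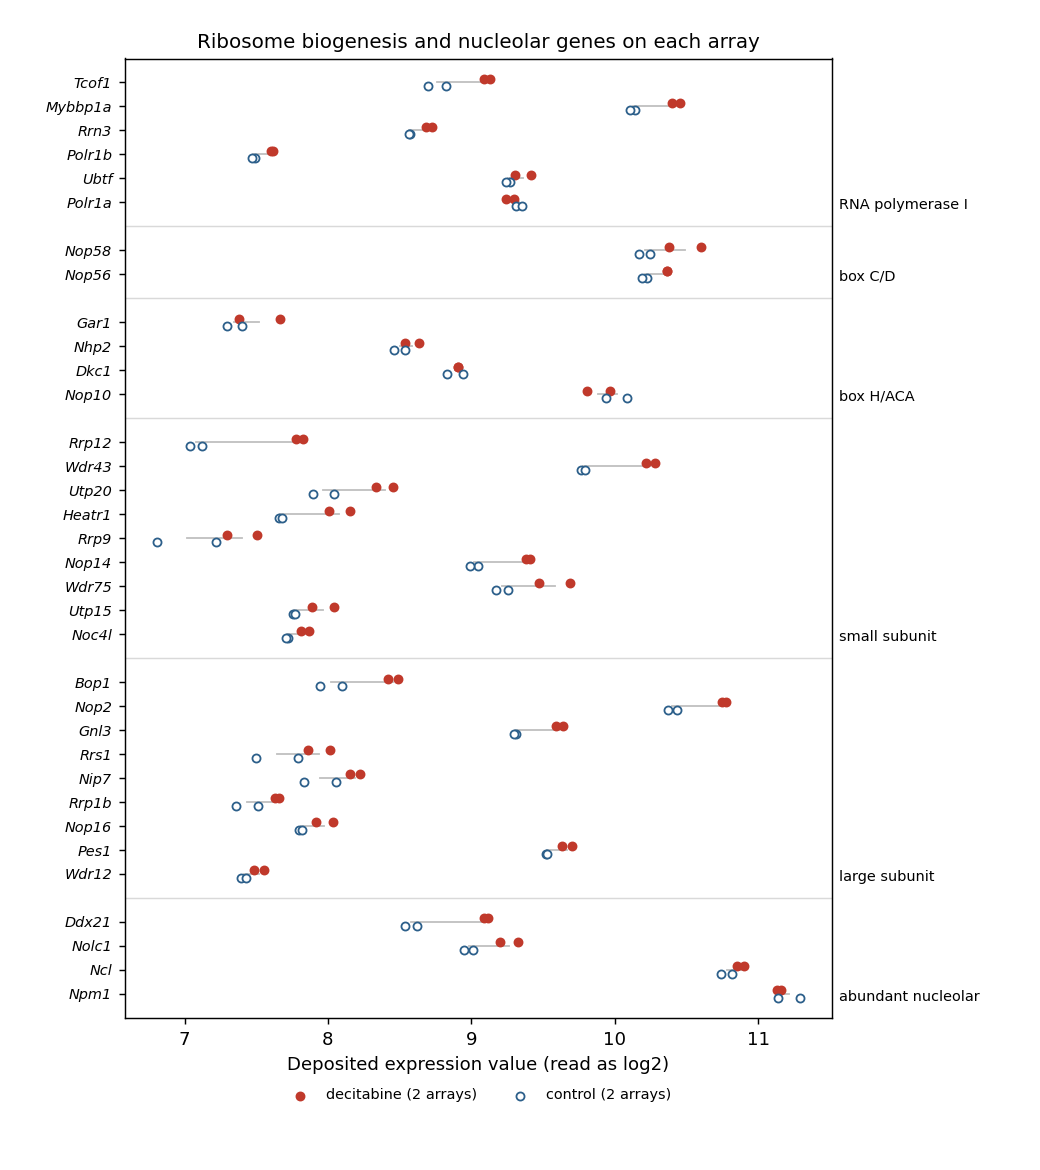
Deposited expression value (read as log2) of 34 ribosome biogenesis and nucleolar genes on each array, by role, with filled red points for the 2 decitabine arrays and open blue points for the 2 control arrays; grey lines join the group means. In 29 genes both red points lie to the right of both blue points, and the groups overlap in Dkc1, Gar1, Nop10 and Npm1.

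Of the roles on the list, assembly factors of the small subunit had the largest median difference. The further genes described below did not repeat this order, with a median of 0.16 for both small subunit and large subunit genes. In all 9 listed genes of this role the arrays were separated with decitabine above, with a median log2 fold change of 0.39, and 6 of the 9 were higher at an unadjusted p below 0.05. Rrp12 (array row 17364725, chromosome 19), a HEAT-repeat protein that takes part in the maturation and export of pre-ribosomes, was at 7.83 and 7.77 on the decitabine arrays, against 7.04 and 7.12 on the control arrays. This was a 1.65-fold difference, with a log2 fold change of 0.72 ± 0.10 (limma SE, 2 arrays per group), and both decitabine arrays lay well above the control range. Leaving out any 1 array changed the value to between 0.68 and 0.76.

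Wdr43 (row 17339476, chromosome 17), the mouse counterpart of yeast Utp5 in the subcomplex that binds the nascent precursor, was at 10.22 and 10.28 with decitabine, against 9.77 and 9.79 in control cells. The groups were well apart, with a log2 fold change of 0.47 ± 0.10. Utp20 (row 17243957, chromosome 10), a large HEAT-repeat scaffold of the small subunit processome, was at 8.45 and 8.34, against 7.89 and 8.04, a log2 fold change of 0.43 ± 0.11. Heatr1 (row 17285157, chromosome 13), the counterpart of yeast Utp10, links precursor transcription with processing. It was at 8.15 and 8.01, against 7.66 and 7.68, a log2 fold change of 0.41 ± 0.10.

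Nop14, which is needed for the small subunit RNA to be processed, was at 9.41 and 9.38 with decitabine, against 9.04 and 8.99 in control cells (log2 fold change 0.38 ± 0.10). Wdr75, the counterpart of yeast Utp17, was at 9.47 and 9.69, against 9.17 and 9.26 (0.37 ± 0.12). In both genes the lower decitabine array lay above the higher control array. The unadjusted p of these 6 genes lay between 0.000725 and 0.0264. The remaining 3 did not pass that threshold. Rrp9, a protein of the U3 particle, was at 7.51 and 7.30, against 6.81 and 7.22, and its 2 control arrays differed by 0.41, more than the groups did (0.39 ± 0.17). Utp15, of the same subcomplex as Wdr43, had a log2 fold change of 0.20 ± 0.11, and Noc4l, the partner of Nop14, one of 0.13 ± 0.10.

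The listed factors of the large subunit had a smaller median difference. Again all 9 listed genes had separated arrays with decitabine above, the median log2 fold change was 0.24, and 3 were higher at an unadjusted p below 0.05. Bop1 (row 17318483, chromosome 15) was at 8.49 and 8.42 with decitabine, against 7.95 and 8.10 in control cells, a log2 fold change of 0.43 ± 0.11 (adjusted p = 0.212, limma). Its protein forms a complex with those of Pes1 and Wdr12 that is needed to process the large subunit RNA, and the partner genes gave smaller values. Pes1 was at 9.63 and 9.70, against 9.52 and 9.53 (0.14 ± 0.10), and Wdr12 at 7.56 and 7.49, against 7.39 and 7.43 (0.11 ± 0.10). Neither passed an unadjusted p of 0.05, and the 95% confidence interval reached 0.39 for Pes1 and 0.36 for Wdr12. The difference between Bop1 and its partners was not tested.

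Nop2 (row 17463108, chromosome 6), an RNA methyltransferase of the large subunit precursor, was at 10.75 and 10.78 with decitabine, against 10.43 and 10.37 in control cells. Arrays of each group lay within 0.06 of each other, and the log2 fold change was 0.36 ± 0.10 (adjusted p = 0.232, limma). Gnl3, which encodes nucleostemin, a GTP-binding protein of proliferating cells, was at 9.59 and 9.64, against 9.31 and 9.30 (0.31 ± 0.10, adjusted p = 0.268, limma). In both genes the group difference was larger than the spread within either group.

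The remaining large subunit genes did not pass an unadjusted p of 0.05. Rrs1, which helps to bring the smallest ribosomal RNA into the large subunit, was at 7.86 and 8.02, against 7.79 and 7.50 in control cells (0.29 ± 0.14). Nip7, a factor for processing of the precursor RNA, was at 8.15 and 8.22, against 8.06 and 7.83 (0.24 ± 0.12). In both genes the control arrays differed nearly as much as the groups, by 0.29 in Rrs1 and 0.23 in Nip7. Rrp1b, a nucleolar protein of the large subunit pathway that also binds chromatin, had a log2 fold change of 0.21 ± 0.11, and Nop16, another large subunit assembly factor, one of 0.16 ± 0.10.

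**Figure D2:**
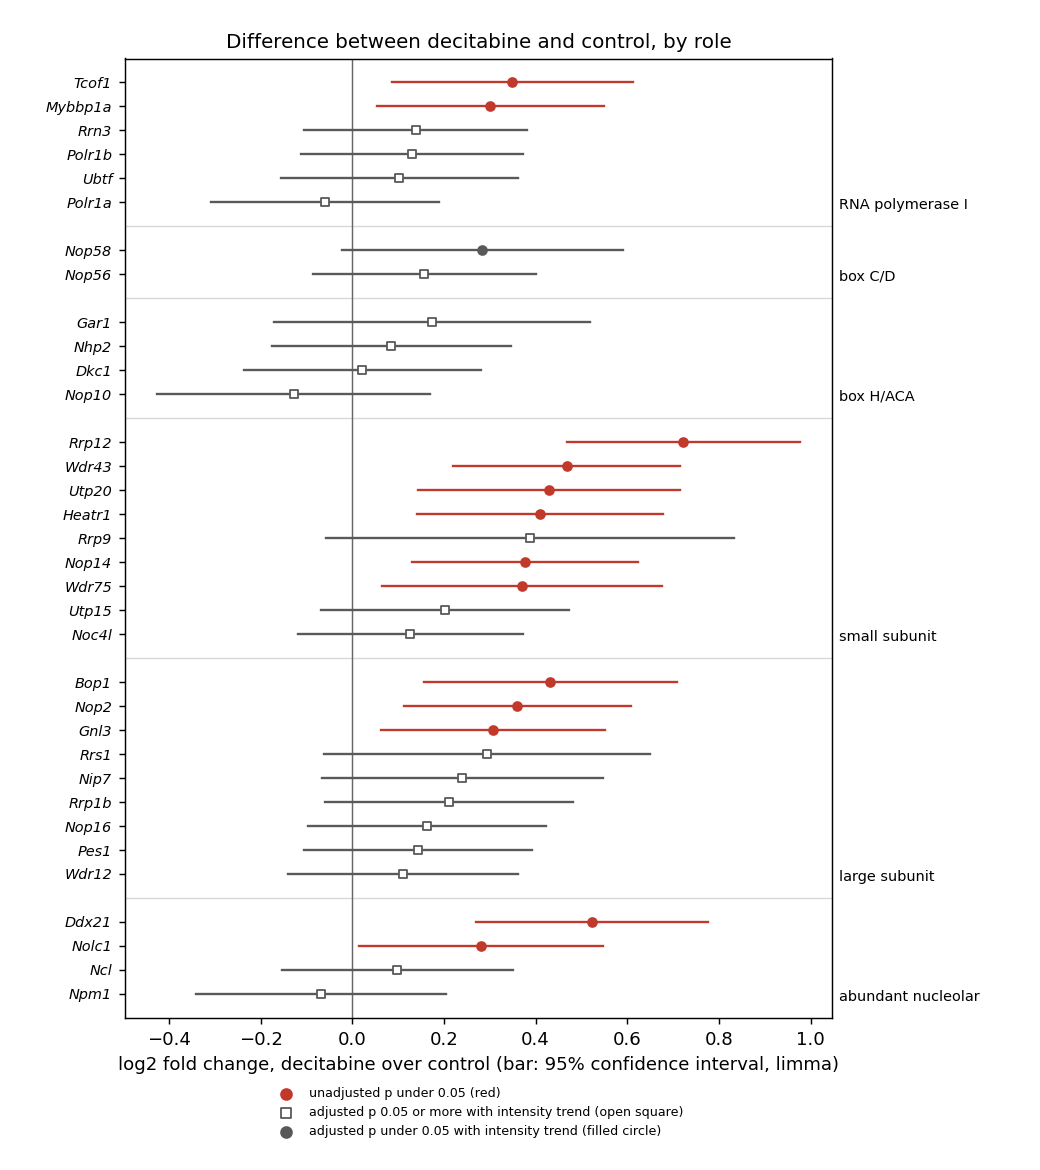
The log2 fold change of each gene (decitabine over control) with its 95% confidence interval from limma, by role; red marks an unadjusted p below 0.05 and filled circles an adjusted p under 0.05 in the fit with an intensity trend. The 13 red genes all lie right of 0, and 6 of them are small subunit factors.

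Genes of the transcription step lay on both sides of 0. Of 6, 5 had separated arrays with decitabine above and 1 below, 2 were higher at an unadjusted p below 0.05, and the median log2 fold change was 0.13. Tcof1, which encodes treacle, a nucleolar scaffold of polymerase I, was at 9.13 and 9.09 with decitabine, against 8.70 and 8.82 in control cells (0.35 ± 0.10, adjusted p = 0.251, limma). Mybbp1a, a MYB-binding nucleolar protein reported to act on both precursor transcription and processing, was at 10.40 and 10.45, against 10.14 and 10.11 (0.30 ± 0.10, adjusted p = 0.280, limma). Both genes encode accessory proteins, and the values of the core machinery were smaller. Polr1a, the largest subunit of polymerase I, was at 9.30 and 9.24, against 9.31 and 9.35 (−0.06 ± 0.10). The second largest, Polr1b, was at 7.62 and 7.60, against 7.49 and 7.47 (0.13 ± 0.09). Neither passed an unadjusted p of 0.05, with 95% confidence intervals from −0.31 to 0.19 for Polr1a and from −0.11 to 0.37 for Polr1b. Rrn3, the initiation factor that lets polymerase I start, had a log2 fold change of 0.14 ± 0.10, and Ubtf, which binds the ribosomal DNA, one of 0.10 ± 0.10, both likewise short of that threshold.

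Proteins of the small nucleolar particles fall into a pair of classes. In the box C/D class, which guides methylation, Nop58 was at 10.38 and 10.60 with decitabine, against 10.25 and 10.17 in control cells (0.28 ± 0.12), and passed only with the intensity trend (adjusted p = 0.0419, limma). Its partner Nop56 was at 10.37 and 10.36, against 10.22 and 10.19 (0.16 ± 0.10). The kept Nop56 row thus had separated arrays, but 2 dimmer rows of the gene ran the other way, with log2 fold changes of −0.15 ± 0.15 and −0.34 ± 0.16, so the mean of its rows was −0.11. The direction for Nop56 therefore depended on the row.

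The box H/ACA class, which guides pseudouridine formation, was the role with the least difference, with a median log2 fold change of 0.05 and 0 of 4 genes past an unadjusted p of 0.05. Dkc1, the pseudouridine synthase dyskerin, was at 8.91 on both decitabine arrays, against 8.83 and 8.94 on the control arrays. Gar1 was at 7.38 and 7.66, against 7.40 and 7.29, and Nop10 at 9.81 and 9.97, against 10.09 and 9.94. In these 3 structural or catalytic genes the groups overlapped. Nhp2 was at 8.63 and 8.54, against 8.54 and 8.46, with separated arrays but a log2 fold change of 0.09 ± 0.10. The 95% confidence intervals of the 4 reached from −0.43 for Nop10 to 0.52 for Gar1, and of the 4 only that of Gar1 reached the small subunit median of 0.39. No test compared the roles with each other.

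Of the abundant nucleolar proteins, the RNA helicase gene Ddx21 had the second largest difference on the list. Ddx21 (row 17241436, chromosome 10), whose product works at both polymerase I and small nucleolar RNAs, was at 9.12 and 9.09 with decitabine, against 8.54 and 8.62 in control cells. The log2 fold change was 0.52 ± 0.10, a 1.44-fold difference (adjusted p = 0.150, limma), and every decitabine array lay above every control array. Nolc1, a chaperone of small nucleolar particles, was at 9.20 and 9.33, against 9.01 and 8.95 (0.28 ± 0.10, adjusted p = 0.331, limma). The widely used nucleolar markers did not pass an unadjusted p of 0.05. Ncl, nucleolin, was at 10.85 and 10.90, against 10.74 and 10.82 (0.10 ± 0.10). Npm1, nucleophosmin, was at 11.16 and 11.13, against 11.14 and 11.29, and its groups overlapped (−0.07 ± 0.11).

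Set against the spread between arrays of one group, the difference was larger than both same-group differences in 26 of the 34 genes with decitabine higher, a pattern found in 17.4% of all genes and 28.0% of the brighter ones. The same held with decitabine lower in 1 gene, Polr1a, against 16.7% and 26.3%. The median same-group difference was 0.07 between the decitabine arrays and 0.07 between the control arrays. The widest was that of Rrp9.

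**Figure D3:**
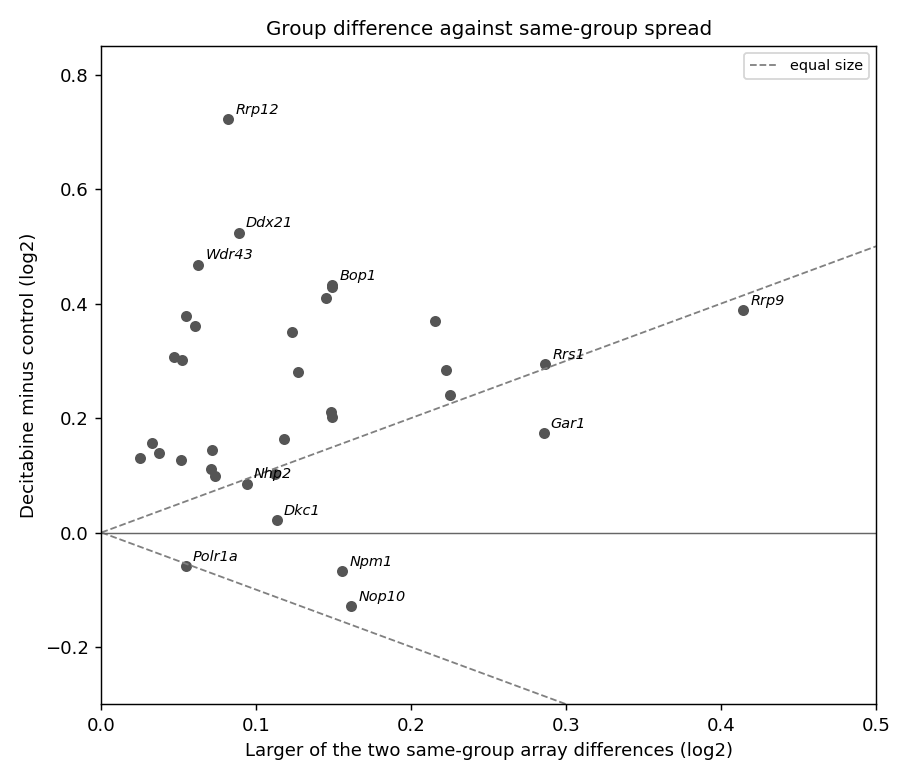
Decitabine minus control (log2, vertical axis) against the larger of the 2 same-group array differences (log2, horizontal axis) for the 34 genes; dashed lines mark equal size. The 26 genes above the upper line include Rrp12, Ddx21, Wdr43 and Bop1, while Rrp9 and Gar1 fall below it and Npm1 and Nop10 lie between the lines.

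The rest of the pathway was described from 4 further lists, also chosen with earlier results of these data known. Of 122 assembly genes that are not on the list of 35, 115 were measured. Their median log2 fold change was 0.16, 101 were positive, and 81 had separated arrays with decitabine above and 5 with decitabine below. Among all genes tested 50.7% were positive, and 23.4% had separated arrays with decitabine above and 22.5% with decitabine below. In limma 29 of the 115 (25.2%) were higher and 0 lower at an unadjusted p below 0.05, against 7.34% and 6.97% of all genes. Of the 115, 0 passed over all genes. With the intensity trend 24 (20.9%) were higher over all genes and 0 lower, against shares of 3.68% and 3.60% among all genes.

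Among 44 further small subunit genes the median was 0.16. At an unadjusted p below 0.05, 13 (29.5%) were higher, against 7.34% of all genes. Pno1, which helps the last cut of the small subunit RNA, was at 8.68 and 8.81 with decitabine, against 8.25 and 8.18 in control cells (0.53 ± 0.10). Bysl, which encodes bystin, had a log2 fold change of 0.51 ± 0.10, and the helicase gene Ddx31 one of 0.49 ± 0.12. Among 48 further genes listed under the large subunit the median was also 0.16, and 14 (29.2%) were higher. Znhit6, an assembly factor of box C/D particles that was placed on that list, had a log2 fold change of 0.55 ± 0.11. The list was thus not confined to large subunit factors. Nmd3, the export adaptor of the large subunit, was at 8.44 and 8.54, against 7.94 and 7.98 (0.53 ± 0.10). Sbds, which helps to release an anti-association factor from the new large subunit, had a value of 0.50 ± 0.11. These genes were the ones of each list with the smallest p, and none passed an adjusted p of 0.05 over all genes without the trend.

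Of 12 RNA exosome genes, whose products trim the precursor, 2 were higher at an unadjusted p below 0.05, Exosc1 (0.33 ± 0.10) and the nuclease gene Dis3 (0.27 ± 0.10), and Exosc9 was at 0.19 ± 0.10. The list's median was 0.19. Its share higher at that p was 16.7%, against 7.34% of all genes and 10.4% of the brighter ones. The 11 further polymerase I genes had a median of 0.09, which was −0.02 without control replicate 2. At an unadjusted p below 0.05, 0 of them were higher or lower, where 7.34% of all genes were higher and 6.97% lower. Their smallest p-values belonged to Taf1a (0.22 ± 0.13), Polr1e (0.15 ± 0.11) and Taf1d (0.13 ± 0.11).

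The genes of the ribosomal proteins themselves, which the assembly factors put in place, lay on the other side of 0. Of 67 measured, 53 were not positive, the median log2 fold change was −0.08, and 33 had separated arrays with decitabine below while 4 had decitabine above. Positive values were found in 20.9% of the 67 and 50.7% of all genes. Separated arrays were found with decitabine below in 22.5% of all genes and 31.9% of the brighter ones. With decitabine above the shares were 23.4% and 33.5%. In limma 2 were higher (2.99%) and 3 lower (4.48%) at an unadjusted p below 0.05, against 7.34% and 6.97% of all genes. Of the 67, 0 passed over all genes. With the intensity trend 2 of the 67 (2.99%) passed over all genes as lower and 0 as higher. Among all genes 3.60% passed as lower and 3.68% as higher. The mean over the 67 genes was 8.49 and 8.44 on the decitabine arrays, against 8.54 and 8.55 on the control arrays. The median stayed below 0 with quantile normalization (−0.06), with centred arrays (−0.11) and without any 1 array (−0.10 to −0.06). The smallest p-values were those of Rpl11 (0.34 ± 0.10), Rps4l (−0.34 ± 0.10) and Rpl17 (0.27 ± 0.10). Many ribosomal protein genes have near-identical processed copies, so which copy a row measured is uncertain, and the list includes tissue-restricted paralogs.

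**Figure D4:**
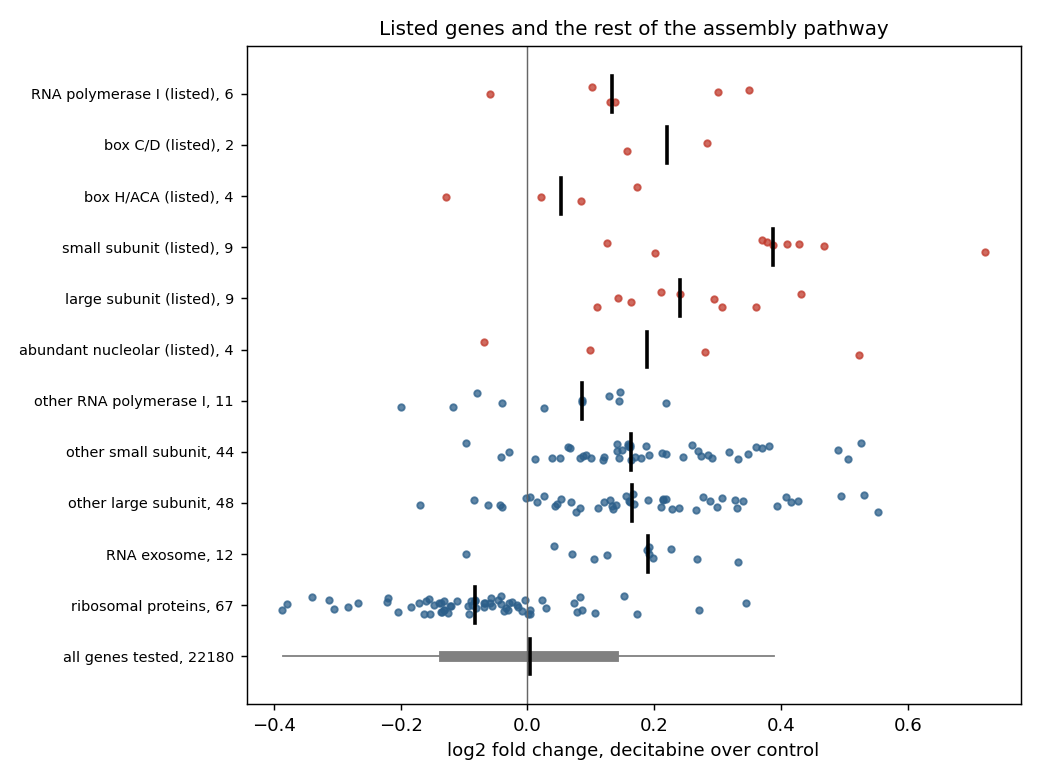
The log2 fold change (decitabine over control) of each gene of the 6 roles on the list (red) and of the further assembly genes and ribosomal protein genes (blue), with black bars for medians and, for all 22180 genes tested, a thick bar from the 25th to the 75th percentile and a thin one from the 5th to the 95th. Medians run from 0.05 for box H/ACA to 0.39 for the small subunit, while that of the ribosomal proteins is −0.08.

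Myc, named in the background above as an activator of this pathway, was at 8.18 and 8.17 with decitabine, against 6.58 and 6.81 in control cells. It rose by 1.48 ± 0.12 on the log2 scale (adjusted p = 0.0442, limma), but the call was close to the threshold. The adjusted p was 0.0519 with robust eBayes, 0.129 with the replicate number as a block, 0.330 with all rows fitted and between 0.177 and 0.566 when any 1 array was left out (limma), and in these fits, robust eBayes apart, no gene of the table passed. MYC and its partner MAX bind the E-box, so the promoters of the listed genes were read for its 6 letters, CACGTG, which are the same on both strands. RefSeq promoter windows of assembly GRCm38.p6, from 250 bases before to 50 bases after an annotated start, were given for 29 of the 34 measured genes. The E-box letters were in at least 1 window of 6 of these 29 genes (20.7%), of 19 of 100 further assembly genes (19.0%) and of 4 of 52 ribosomal protein genes (7.69%). The share was 9.19% of all genes tested that had a window, 13.1% of those at or above the level of the dimmest listed gene, and 7.15% of all 32851 windows.

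The 6 windows that hold it are shown because they are the listed promoters with these letters. They are those of Wdr43 (chr17:71615965-71616264, plus strand), Utp20 (chr10:88826765-88827064, minus strand), Nop2 (chr6:125131633-125131932, plus strand), Mybbp1a (chr11:72441077-72441376, plus strand), Pes1 (chr11:3963725-3964024, plus strand) and Rrn3 (chr16:13780449-13780748, plus strand). Each reads 5′ to 3′ along the gene, and capitals mark the E-box.
Wdr43: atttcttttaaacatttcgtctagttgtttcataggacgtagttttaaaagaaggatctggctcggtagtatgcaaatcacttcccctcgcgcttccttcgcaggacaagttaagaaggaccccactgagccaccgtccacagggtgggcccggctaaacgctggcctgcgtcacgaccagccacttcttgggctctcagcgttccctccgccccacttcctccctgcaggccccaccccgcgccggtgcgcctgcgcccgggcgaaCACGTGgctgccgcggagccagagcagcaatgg
Utp20: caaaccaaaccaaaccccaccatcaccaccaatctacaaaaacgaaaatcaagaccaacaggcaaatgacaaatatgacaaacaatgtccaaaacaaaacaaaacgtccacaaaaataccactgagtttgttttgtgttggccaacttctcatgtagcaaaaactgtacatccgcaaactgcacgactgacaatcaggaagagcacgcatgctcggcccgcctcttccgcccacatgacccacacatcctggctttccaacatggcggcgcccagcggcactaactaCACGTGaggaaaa
Nop2: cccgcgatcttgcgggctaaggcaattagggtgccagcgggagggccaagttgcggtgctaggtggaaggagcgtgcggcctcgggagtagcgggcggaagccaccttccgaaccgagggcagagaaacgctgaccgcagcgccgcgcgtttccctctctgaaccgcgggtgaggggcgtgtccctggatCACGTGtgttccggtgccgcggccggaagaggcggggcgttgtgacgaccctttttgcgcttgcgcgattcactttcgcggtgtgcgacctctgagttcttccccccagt
Mybbp1a: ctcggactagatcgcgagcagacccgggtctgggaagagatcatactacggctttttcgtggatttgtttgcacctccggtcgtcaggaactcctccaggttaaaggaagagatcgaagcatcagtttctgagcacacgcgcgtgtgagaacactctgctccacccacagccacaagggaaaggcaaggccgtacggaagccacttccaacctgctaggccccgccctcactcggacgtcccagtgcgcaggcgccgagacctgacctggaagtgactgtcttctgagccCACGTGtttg
Pes1: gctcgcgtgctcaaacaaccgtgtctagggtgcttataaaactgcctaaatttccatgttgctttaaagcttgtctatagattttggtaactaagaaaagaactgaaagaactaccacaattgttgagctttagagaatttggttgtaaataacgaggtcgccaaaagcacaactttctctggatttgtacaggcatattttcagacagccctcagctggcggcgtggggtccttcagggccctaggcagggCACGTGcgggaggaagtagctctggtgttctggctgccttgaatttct
Rrn3: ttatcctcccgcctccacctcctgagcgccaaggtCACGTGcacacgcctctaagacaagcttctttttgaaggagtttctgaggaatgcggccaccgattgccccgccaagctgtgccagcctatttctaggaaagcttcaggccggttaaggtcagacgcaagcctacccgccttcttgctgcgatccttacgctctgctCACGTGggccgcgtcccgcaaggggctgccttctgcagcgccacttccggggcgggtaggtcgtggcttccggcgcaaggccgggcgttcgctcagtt

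Counted from the annotated start as base 1, the E-box began at base 18 in Wdr43, 38 in Utp20, 41 in Mybbp1a and 3 in Pes1, all just inside the transcript. It began 60 bases before the start in Nop2 (position -60), and Rrn3 had 2 copies, at positions -215 and -48. The 6 genes had a median log2 fold change of 0.33, and 4 of them (Wdr43, Utp20, Nop2 and Mybbp1a) were higher at an unadjusted p below 0.05. The 23 genes whose windows lacked it had a median of 0.17, and 6 of them were higher at that p. Ddx21, with the largest difference of the genes with a window, was among those without the letters, and no window was read for Rrp12. Over all genes tested, 9.29% of those with the letters and 7.03% of those without were higher at an unadjusted p below 0.05. Among the brighter genes the shares were 12.4% and 10.2%. Of the ribosomal protein genes, 0 of 4 with the letters and 1 of 48 without were higher at that p. These are counts of letters in a window and no measure of binding. The listed genes were chosen with earlier results known, and a link between Myc and their values was not tested. CG pairs, the sites of DNA methylation, had a median count of 21 per gene in the listed windows (the highest window of each gene), 15 over all genes tested and 24 over the brighter ones.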

How the data were processed

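Expression was measured in 4 samples on Mouse Gene ST arrays. The authors deposited 1 value per row and array, taken here as log2 expression because the values have no missing cells and run from 0.55 to 13.26. The log base, background correction, summarisation and normalization are not given in the sources used here.

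The platform annotation gave 1 gene symbol to 23521 of the 41345 rows, several to 1814 and none to 16010. The row with the highest mean was kept for the 1082 genes with several rows, which left 22180 genes. Symbols needed 0 updates through a RefSeq gene table of GRCm38.p6. Groups came from the sample titles. One limma model (version 3.58.1, R 4.3.3) was fitted to all genes with group as its term and eBayes without an intensity trend. Its two-sided p-values were adjusted by Benjamini-Hochberg over the 22180 genes, and the threshold was 0.05. The script was tested on simulated data with known changes. An adjusted p below 0.05 recovered 0.299% of simulated 1.5-fold, 29.6% of 2-fold and 92.4% of 4-fold changes. An unadjusted p below 0.05 recovered 88.5% of the 1.5-fold changes. The simulated spread did not depend on the level. In the data the median same-group differences were 0.14 (decitabine) and 0.12 (control) over all genes and 0.07 over the listed ones. These rates thus need not hold for the listed genes. Figures used Python 3.11.15 and matplotlib 3.10.9.

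The 35 genes and the further lists were chosen with earlier results of these data known. All listed genes are named, with the 3 genes of smallest p from each further list and Myc. Alternatives covered normalization, dim-gene filters, the variance model, row choice, the replicate block and leaving out each array.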

Additional observations from a re-analysis of the deposited data

Results flagged for a closer look

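Rows outside the comparison, because they carried several symbols or were not the brightest row of their gene, were also read. Of 7 such rows of listed genes, 3 had separated arrays with decitabine above, 1 had decitabine below (the Nop56 row at −0.34 ± 0.16), and in 3 the groups overlapped. These last were the other dimmer Nop56 row (−0.15 ± 0.15), the dimmer Npm1 row (−0.04 ± 0.17) and the row shared by Snord57 and Nop56 (−0.12 ± 0.19). The row shared by Fbl and Tulp4 was at 9.04 and 8.70 with decitabine, against 8.64 and 8.63 in control cells (0.23 ± 0.16 on the log2 scale, adjusted p = 0.721 in limma over all rows), and which of these genes it measured cannot be told. The dimmer Ddx21 row was at 6.87 and 6.80, against 6.52 and 6.55 (0.30 ± 0.11, adjusted p = 0.537 in limma). The dimmer Rrs1 row was at 6.63 and 6.58, against 6.40 and 6.18 (0.31 ± 0.13, adjusted p = 0.581 in limma). None of the 7 passed an adjusted p of 0.05.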

How the results depend on the processing

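The median log2 fold change of the listed genes stayed above 0 under those of the 14 alternatives that could change it. It was 0.23 with quantile normalization or the mean of a gene's rows, and 0.20 with centred arrays. When 1 array was left out it lay between 0.16 and 0.28. Level filters, variance models, the block and the fits to all rows leave each fold change as it is, so they could not move this median. The count past an adjusted p of 0.05 was 0 as reported, 1 when the dimmest genes, below the 25th percentile, were left out, 9 when those below the median level were, 14 with the intensity trend, and 1 when all rows were fitted with that trend (an alternative added after seeing the data). No listed gene passed as lower under any alternative. The count at an unadjusted p under 0.05 was 13 as reported, 21 with the trend and 6 to 12 when 1 array was left out (6 without control replicate 1 and 7 without control replicate 2). For the further assembly genes it was 29 as reported, 50 with the trend (1 lower), 19 with all rows fitted, and 9 to 17 when 1 array was left out, with 0 or 1 lower. With the replicate number as a block it was 18 for these genes and 12 for the listed ones. Same-numbered arrays of the groups deviated with a correlation of −0.02, so the shared number gave no sign of pairing. With the block no gene of the table passed an adjusted p of 0.05, against 29 higher and 3 lower as reported, and Myc was among the calls lost (adjusted p = 0.129, limma). The Myc call also did not hold with robust eBayes, with all rows fitted without the trend or without any 1 array. Single genes changed sign in 4 cases, Nop56 with the mean of its rows (−0.11), Dkc1 with centred arrays (−0.003) and without control replicate 1 (−0.04), and Npm1 without control replicate 2 (0.01). The causes were not tested. No background level could be set from these values, so no detection limit is given.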
